A study of Mus musculus with 8 samples.

Results

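Glycolysis and the cellular response to low oxygen were followed in the epidermis of newborn mice with and without *Rora*, through 38 genes: 4 transporters of glucose or monocarboxylates, 17 genes of the glycolytic steps and of lactate formation, 3 PFKFB enzymes, 4 pyruvate dehydrogenase kinases, 4 genes of hypoxia-inducible factor (HIF) and its prolyl hydroxylases, and 6 genes that low oxygen induces. All 38 symbols were found among the 55416 genes of the count table, and 36 of them were among the 13147 genes that passed the filter on low counts. Members were picked by symbol, and the rule used none of the measured values. RNA-seq had been done on dorsal epidermis at postnatal day 4 (P4), peeled from the dermis after a short heat treatment. The 4 RoraEKO libraries came from mice in which K14-Cre deleted a loxP-flanked *Rora* allele (Rora flox/flox), and the 4 control libraries from mice labelled WT. Because the Keratin 14 promoter drives Cre in basal keratinocytes and their progeny, other cells of the peeled tissue, such as melanocytes and immune cells, are not targeted.

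Glycolysis turns glucose into pyruvate, which is either reduced to lactate or passed to the mitochondria, where pyruvate dehydrogenase feeds it into respiration. When oxygen is scarce, the prolyl hydroxylases that mark HIF alpha subunits for destruction slow down, and the stabilised factor switches on glucose uptake, glycolytic enzymes, pyruvate dehydrogenase kinases and genes for mitophagy and growth arrest. The epidermis has no blood vessels of its own and draws oxygen and glucose by diffusion, and RORα, the product of *Rora*, is a nuclear receptor known for its roles in the circadian clock and in lipid metabolism.

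Library totals lay between 17286903 and 26705533 counts. A floor of 3 counts equalled 0.113 to 0.196 CPM (counts per 1000000 counts of the library), and such floors cover counting error only. *Rora* itself was at 158, 193, 187 and 309 CPM in control A1, B1, C1 and C6 and at 154, 189, 237 and 206 CPM in RoraEKO A3, B4, C2 and C3 (log2 fold change -0.11, edgeR adjusted p = 0.877). These counts are summed over the whole gene and do not show whether the loxP-flanked part was lost, so each genotype rests on its label. *Xist*, transcribed from the inactive X chromosome of females, was at 416 and 527 CPM in control C1 and C6 and at no more than 0.0546 CPM in the other 6 libraries. *Ddx3y*, on the Y chromosome, was at 0 CPM in control C1 and C6 and at 15.7 to 24.1 CPM in the other 6. By these genes control C1 and C6 were female and all other libraries male, so sex was partly mixed with genotype. RoraEKO B4 was the highest of the 8 libraries in 19 of the 36 members tested.

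Of the 36 members, 1 was higher and 3 were lower in the RoraEKO epidermis at an adjusted p below 0.05 and a fold change above 1.5 (edgeR quasi-likelihood test, adjusted over all genes). *Bnip3* and *Ddit4*, induced by low oxygen, and the kinase *Pdk3* fell, and the glycolytic control enzyme *Pfkfb4* rose. The other 32 members did not pass, among them all 17 genes of the glycolytic steps. In the same comparison 2.3% of all genes tested were called higher and 3.22% were called lower. The shares of all genes with an unadjusted p under 0.05, or called by DESeq2, were not counted. Such p-values were common: for *Krt10* an edgeR p of 0.0497 became 0.274 after adjustment. Counts of these 2 kinds below therefore lack a background and are descriptions only. The genotypes did not overlap in 7 members, or 19.4%, against 12.9% of all genes tested. The median log2 fold change was 0.09 over the members and -0.04 over all genes tested, with 23 members above 0 and 13 below. Without RoraEKO B4 the median of the members was -0.02, with 17 above 0. Peeled tissue holds several cell types, and fewer cells of a type cannot be told apart from less RNA per cell.

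**Figure D1:**
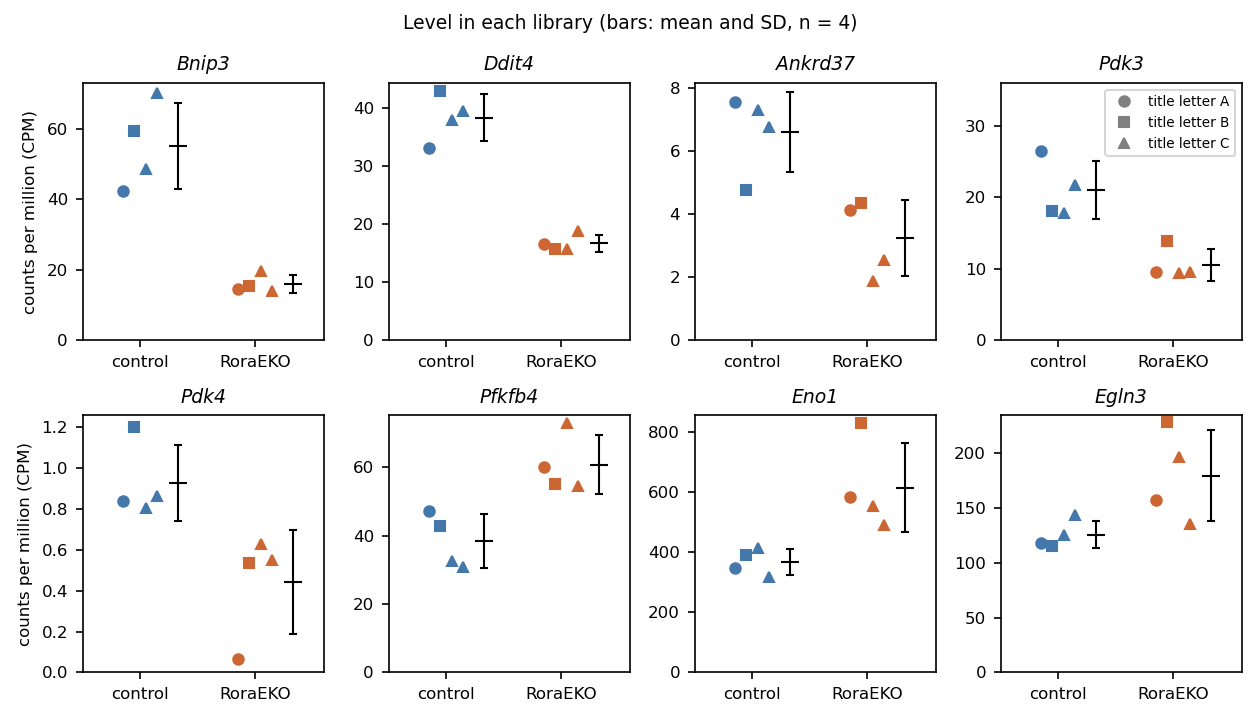
Level of 8 members in each library, in CPM on axes that start at 0; points are libraries, their shape gives the first letter of the sample title, and bars give the mean and SD of the 4 libraries of each genotype. The control and RoraEKO points are apart in every panel but that of *Egln3*. In the *Bnip3* panel controls lie between 42.3 and 70.3 CPM and RoraEKO libraries between 13.9 and 19.8 CPM.

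*Bnip3* encodes a receptor on the outer mitochondrial membrane that recruits the autophagy machinery and is a textbook HIF target. It was at 42.3, 59.6, 48.7 and 70.3 CPM in the control libraries A1, B1, C1 and C6 and at 14.7, 15.3, 19.8 and 13.9 CPM in RoraEKO A3, B4, C2 and C3. Every RoraEKO library lay below every control library. The log2 fold change was -1.79 (SE 0.20, edgeR adjusted p = 0.000622), and it stayed between -1.90 and -1.63 when any 1 library was left out. Within the first letters of the sample titles, whose meaning the labels do not give, the log2 difference was -1.52 for A, -1.95 for B and -1.81 for C. Letters A and B hold 1 library of each genotype, and letter C holds 2.

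*Ddit4* encodes REDD1, an inhibitor of mTORC1 signalling that is induced by low oxygen, by energy stress and by glucocorticoids. Its level was 33.1, 42.9, 37.9 and 39.4 CPM in the controls against 16.6, 15.7, 15.7 and 18.8 CPM in the RoraEKO libraries, in the same order. The genotypes were far apart, and the SD was 4.06 CPM in controls and 1.48 CPM in RoraEKO (n = 4 each). *Ddit4* fell, with a log2 fold change of -1.20 (SE 0.10, edgeR adjusted p = 0.000598), with -0.99, -1.45 and -1.17 within letters A, B and C. *Bnip3* and *Ddit4* were the members that passed the test under all 19 alternative fits, with adjusted p between 2.48e-14 and 0.0046 and between 4.48e-13 and 0.00515. In the 6 libraries with *Xist* under 1 CPM they stood at -1.63 and -1.13 (edgeR adjusted p = 0.0075 and 0.0155).

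Stretches before the RefSeq starts of the genes that were called are shown because these genes moved while most HIF-linked members did not pass, and because HIF binds to the letters ACGTG or GCGTG. Both strands were searched for them in the 250 bases before the RefSeq start of each gene (table of GRCm38.p6, matched letter for letter to GRCm39), with ACGTG also lying inside the palindrome CACGTG bound by clock and MYC factors. Of 32851 such windows of all genes, 16.6% held ACGTG, 28.2% held GCGTG and 6.02% held CACGTG. The letters AGGTCA, the core bound by ROR proteins and other nuclear receptors, were in 14.0% of the windows, and none of the 4 called members held them. Windows were given for 35 of the 38 members, without *Slc2a3*, *Epas1* and *Ndrg1*, and some genes have several. Counted per gene over any of its windows, ACGTG was in 22 of these 35 members and 18.5% of all 27025 genes with a window, GCGTG in 23 and 30.9%, CACGTG in 8 and 6.86%, and AGGTCA in 6 and 15.8%. Base composition and the number of windows per gene were not matched. *Bnip3* held GCGTG on 3 occasions and 1 CACGTG, *Ddit4* held 1 ACGTG and 1 GCGTG, *Pdk3* held 1 ACGTG and 3 GCGTG, and *Pfkfb4* held 1 GCGTG. For *Bnip3* the 232 bases that lie outside every annotated exon are printed, and for the others 30 bases around the letters, which in every printed stretch lie wholly in an exon that GENCODE annotates before the RefSeq start. Capitals mark these letters on either strand, and each line runs 5′ to 3′ on the strand of the gene, with coordinates in GRCm39. A match of letters is a description and not a binding site.
Bnip3, chr7:138511254-138511485, minus strand: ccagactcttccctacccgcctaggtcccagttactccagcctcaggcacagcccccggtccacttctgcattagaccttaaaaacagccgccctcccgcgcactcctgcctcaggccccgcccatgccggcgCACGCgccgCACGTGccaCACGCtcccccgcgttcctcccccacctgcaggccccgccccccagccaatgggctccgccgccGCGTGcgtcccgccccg
Ddit4, chr10:59787762-59787791, minus strand: agaacgttgcgaACGTGcgcccggtgccta
Ddit4, chr10:59787690-59787719, minus strand: gacctggaggggGCGTGgcctcgccgggag
Pdk3, chrX:92875902-92875931, minus strand: ggaggtttgtgtGCGTGttaccggggcttt
Pdk3, chrX:92875843-92875872, minus strand: tcagcagcgcgcGCGTGcagccgcgtaccc
Pdk3, chrX:92875799-92875828, minus strand: catccCACGCgcgccgcgtACGTGcggcgg
Pfkfb4, chr9:108820841-108820870, plus strand: ttgacggatgggGCGTGcttagtccaaaag

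*Ankrd37*, a small ankyrin repeat protein whose gene is induced by HIF, also separated the genotypes. It was at 7.54, 4.75, 7.29 and 6.76 CPM in controls and at 4.11, 4.36, 1.88 and 2.55 CPM in RoraEKO, so that control B1 and RoraEKO B4 nearly met. The log2 fold change of -1.03 (SE 0.32) did not pass the test (edgeR adjusted p = 0.0695, between 0.0158 and 0.203 over the alternatives). It was called lower in 4 of the 19 alternative fits, among them DESeq2 and both other tests in edgeR, exact and likelihood ratio. The gene overlaps *Ufsp2* and *Lrp2bp* on the other strand, and although the library kit keeps strand, the strand setting of the counting is not given in the sources used here.

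Of the other genes that low oxygen induces, *Ndrg1*, a differentiation and stress gene, was the most abundant per length of transcript. It was at 190, 115, 86.8 and 85.9 CPM in controls and at 122, 115, 80.0 and 70.9 CPM in RoraEKO. The genotypes overlapped in part, with RoraEKO C2 and C3 below the lowest control and control A1 above every RoraEKO library (log2 fold change -0.30, SE 0.33, edgeR adjusted p = 0.673). Without control A1 it was 0.02. *Vegfa*, the growth factor that draws blood vessels, was at 27.9 ± 9.57 CPM in controls and 29.5 ± 6.82 CPM in RoraEKO (SD, n = 4 each, as for all values given this way below). *Car9*, the membrane carbonic anhydrase of hypoxic cells, had no count in the 4 controls or in RoraEKO A3 and C3. It was at 0.247 CPM, 6 counts, in RoraEKO B4 and 0.0964 CPM in RoraEKO C2, and did not pass the filter. Among the 5 tested members of this group, the edgeR quasi-likelihood test called 2 lower and DESeq2 called 3, with *Ankrd37*.

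None of the 4 genes of HIF and its hydroxylases passed the edgeR test or DESeq2, and 1 had an unadjusted p under 0.05. *Egln3*, which encodes the prolyl hydroxylase PHD3 and is itself induced by HIF, was the most abundant of them per length. It was at 118, 116, 125 and 144 CPM in controls and at 157, 229, 196 and 136 CPM in RoraEKO. Only RoraEKO C3 fell within the control range, and the log2 fold change was 0.51 (SE 0.18, edgeR adjusted p = 0.137). *Egln1*, encoding the main oxygen sensor PHD2, was at 45.4 ± 4.32 CPM in controls and 48.3 ± 9.79 CPM in RoraEKO. *Hif1a* was at 16.8 ± 5.08 CPM in controls and 24.8 ± 11.9 CPM in RoraEKO, of which RoraEKO B4 held 42.1 CPM. *Epas1*, the gene for HIF-2α, was at 123 ± 18.6 CPM in controls and 111 ± 15.3 CPM in RoraEKO. RNA levels do not show how much HIF protein is stable.

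The pyruvate dehydrogenase kinases switch off pyruvate dehydrogenase and so hold pyruvate back from respiration. Of the 4, *Pdk3* passed the test, *Pdk4* had a log2 fold change of similar size without passing, and *Pdk1* and *Pdk2* were close to 0. *Pdk3* lies on the X chromosome from 92789513 to 92876389 (GRCm39), on the minus strand. Its level was 26.5, 18.1, 17.8 and 21.7 CPM in controls A1, B1, C1 and C6 against 9.53, 13.9, 9.35 and 9.49 CPM in RoraEKO A3, B4, C2 and C3. RoraEKO B4 stood nearest to the controls, without reaching them.

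The log2 fold change of *Pdk3* was -0.99 (SE 0.19, edgeR adjusted p = 0.0128), with -1.46, -0.38 and -1.05 within letters A, B and C. It passed the test in 16 of 19 alternative fits, where adjusted p ran from 0.000214 to 0.0631. The call was lost without RoraEKO A3, C2 or C3 (edgeR adjusted p = 0.052, 0.0631 and 0.052), and among the 6 libraries with *Xist* under 1 CPM it was at -1.02 with an edgeR adjusted p of 0.0686. Part of the gene overlaps *Pcyt1b* on the other strand.

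*Pdk4*, the kinase of fasting and fat oxidation, was scarce, at 0.837, 1.202, 0.805 and 0.863 CPM in controls and 0.0653, 0.534, 0.626 and 0.549 CPM in RoraEKO. The genotypes did not overlap, but the values rest on at most 23 counts per library, and RoraEKO A3 was below its floor of 0.196 CPM. The log2 fold change of -1.01 (SE 0.53) did not pass the test (edgeR adjusted p = 0.314), and without RoraEKO A3 it was -0.64. *Pdk1*, the HIF-induced kinase, was at 29.0 ± 3.50 CPM in controls and 26.9 ± 4.69 CPM in RoraEKO, a log2 fold change of -0.11 that turned to 0.01 without RoraEKO C2. *Pdk2*, the widely expressed form, was at 6.86 ± 5.49 CPM in controls and 6.71 ± 3.85 CPM in RoraEKO, and its log2 fold change of -0.04 (SE 0.78) was 0.47 without control A1 and -0.44 without RoraEKO A3.

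PFKFB enzymes make and break fructose 2,6-bisphosphate, the activator that sets the pace of phosphofructokinase. *Pfkfb4*, a HIF-induced form, was at 47.3, 42.8, 32.7 and 30.7 CPM in controls and at 60.2, 55.2, 73.0 and 54.6 CPM in RoraEKO. All RoraEKO libraries were above all controls. Between genotypes, the log2 fold change was 0.66 (SE 0.18, edgeR adjusted p = 0.0488), with 0.35, 0.37 and 0.99 within letters A, B and C. This call was close to the threshold, and it held in 9 of 19 alternative fits, over which adjusted p ran from 0.00468 to 0.197. It was lost when control B1, C1 or C6 or RoraEKO A3, B4, C2 or C3 was left out, and with *Xist* as a covariate the log2 fold change was 0.43 (edgeR adjusted p = 0.197).

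*Pfkfb3*, the form with the strongest kinase activity, was at 9.77 ± 3.69 CPM in controls and 17.8 ± 6.74 CPM in RoraEKO, and its log2 fold change of 0.87 came with overlapping genotypes. *Pfkfb2*, known from heart muscle, was at 8.08 ± 1.47 CPM in controls and 8.16 ± 1.02 CPM in RoraEKO.

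**Figure D2:**
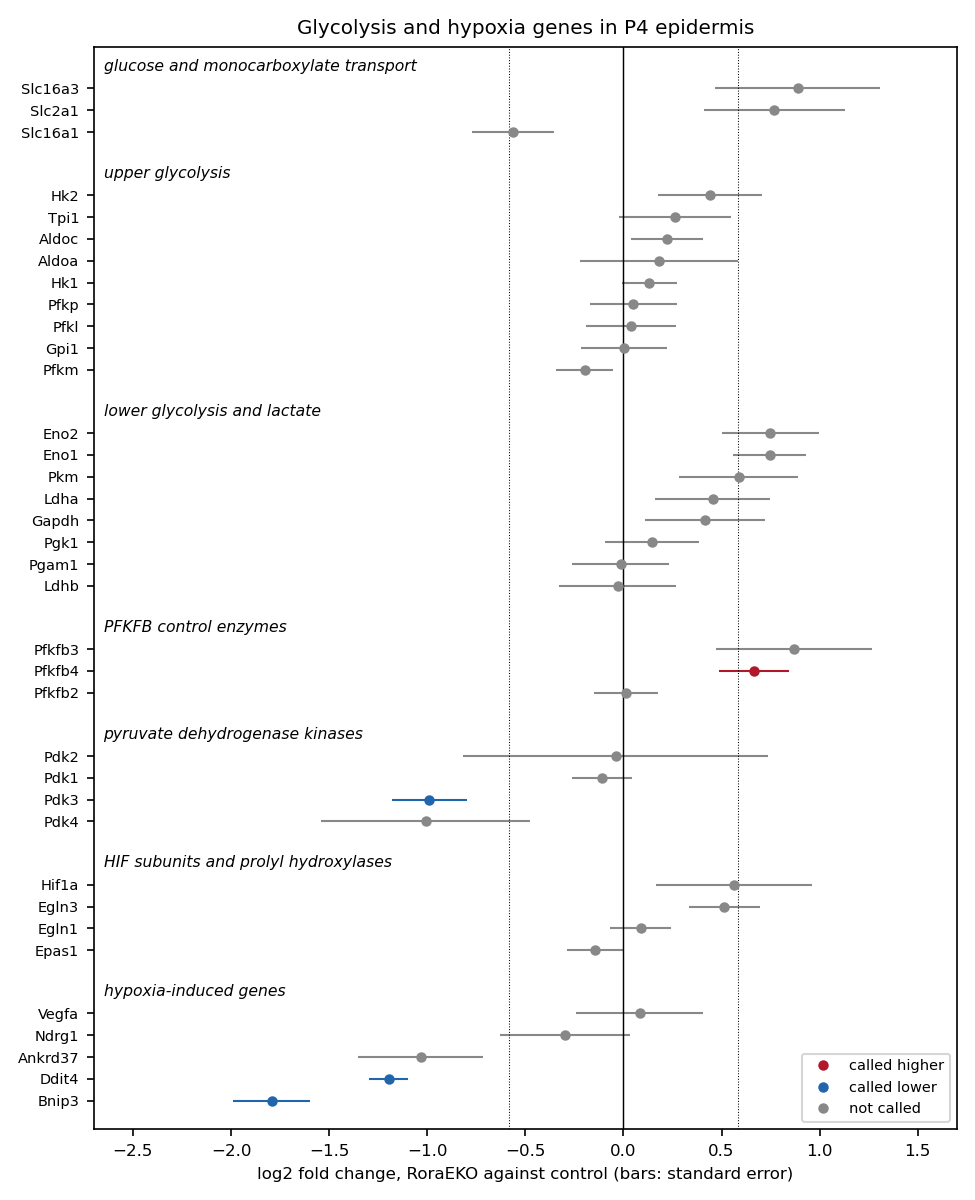
Log2 fold change of the 36 members tested, RoraEKO against control, ordered within each role; points are estimates, bars their standard errors, dotted lines mark a fold change of 1.5 in either direction, and colour gives the call. *Bnip3* at -1.79 and *Ddit4* at -1.20 lie furthest to the left, followed by *Ankrd37* at -1.03 and *Pdk4* at -1.01, which were not called, and by *Pdk3* at -0.99, which was. *Pfkfb4* at 0.66 is the called member on the right, and the glycolytic steps lie near or above 0 without a call.

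In the upper part of glycolysis, where glucose is phosphorylated and split, none of 9 genes passed the edgeR test or DESeq2, 0 had an unadjusted p under 0.05, and 8 had a log2 fold change above 0 (median 0.13). Without RoraEKO B4, 3 of the 9 were above 0 and the median was -0.04. *Aldoa*, the aldolase that splits fructose bisphosphate, was the most abundant per length of transcript, with 379 CPM per kilobase in controls and 429 in RoraEKO. Its values were 980, 536, 409 and 365 CPM in controls and 741, 920, 471 and 463 CPM in RoraEKO. The genotypes overlapped, with the A and B libraries of both above the C libraries (log2 fold change 0.18, SE 0.40, edgeR adjusted p = 0.871). Without RoraEKO B4 it was -0.04, and the differences within letters A, B and C were -0.40, 0.78 and 0.27. Reads of *Aldoa* could be shared with the overlapping *Gm57854* on the same strand.

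The hexokinases *Hk1* and *Hk2*, which trap glucose in the cell, were at 77.7 ± 10.1 and 60.5 ± 14.1 CPM in controls and at 85.2 ± 12.8 and 82.1 ± 24.0 CPM in RoraEKO. *Gpi1*, which converts glucose 6-phosphate to fructose 6-phosphate, was at 148 ± 29.9 CPM in controls and 149 ± 32.8 CPM in RoraEKO. The phosphofructokinase forms *Pfkl*, *Pfkm* and *Pfkp*, which take the committed step, stood at 63.7 ± 4.06, 10.2 ± 1.87 and 59.2 ± 14.8 CPM in controls. In RoraEKO they stood at 65.4 ± 22.0, 8.89 ± 0.693 and 61.3 ± 8.35 CPM. *Aldoc*, a second aldolase, was at 20.1 ± 2.14 CPM in controls and 23.4 ± 5.04 CPM in RoraEKO, and *Tpi1*, triosephosphate isomerase, was at 172 ± 29.5 and 207 ± 77.6 CPM. The genotypes overlapped in each of these genes.

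In the lower part, where the energy is harvested and pyruvate reduced, none of 8 genes passed the edgeR test and 6 were above 0 (median 0.43), and without RoraEKO B4 the median was 0.14 with 5 above 0. An unadjusted p under 0.05 was found for 2 of the 8. *Eno1*, the enolase of most tissues, came nearest and was called by DESeq2. It was at 346, 390, 415 and 316 CPM in controls and at 585, 830, 553 and 490 CPM in RoraEKO. All 4 RoraEKO libraries were above all controls, with RoraEKO B4 the highest. Its log2 fold change was 0.74 (SE 0.18, edgeR adjusted p = 0.0504), with 0.76, 1.09 and 0.52 within letters A, B and C. It was called in 7 of 19 alternative fits, where adjusted p ran from 0.00163 to 0.167, and without RoraEKO B4 it was 0.57 (edgeR adjusted p = 0.0903).

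*Gapdh*, which makes the first NADH of the pathway and is widely used as a reference gene, was the most abundant of the lower part per length (344 CPM per kilobase in controls, 459 in RoraEKO). It was at 602, 513, 477 and 363 CPM in controls and 730, 961, 448 and 467 CPM in RoraEKO. RoraEKO A3 and B4 were above every control, while C2 and C3 were within the control range (log2 fold change 0.42, SE 0.31, edgeR adjusted p = 0.493). Without RoraEKO B4 the log2 fold change was 0.17. *Gapdh* has many processed copies in the mouse genome that can share its reads.

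*Pgk1*, the first ATP-making kinase of the pathway, was at 71.8 ± 8.39 CPM in controls and 79.4 ± 26.7 CPM in RoraEKO, and *Pgam1*, phosphoglycerate mutase, was at 157 ± 25.4 and 155 ± 53.0 CPM. *Pkm*, pyruvate kinase, was at 275 ± 49.0 CPM in controls and 414 ± 171 CPM in RoraEKO, with a log2 fold change of 0.59. *Ldha*, the lactate dehydrogenase subunit that favours lactate, was at 241 ± 45.3 and 330 ± 138 CPM, and *Ldhb*, the subunit that favours pyruvate, at 15.1 ± 6.51 and 14.9 ± 2.49 CPM. *Eno2*, the enolase of neurons, was at 1.64 ± 0.346 CPM in controls and 2.78 ± 0.804 CPM in RoraEKO. In *Pkm* and *Ldha*, RoraEKO B4 stood apart at 658 and 534 CPM, and without it their log2 fold changes were 0.27 and 0.12, against 0.59 and 0.45 with it.

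Over the 17 genes of the glycolytic steps, 14 were above 0 with a median of 0.18. RoraEKO B4 was the highest of the 8 libraries in 12 of them. Without that library 8 of the 17 were above 0, and the median was -0.01. Among the 6 libraries with *Xist* under 1 CPM, 13 were above 0 and the median was 0.28.

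**Figure D3:**
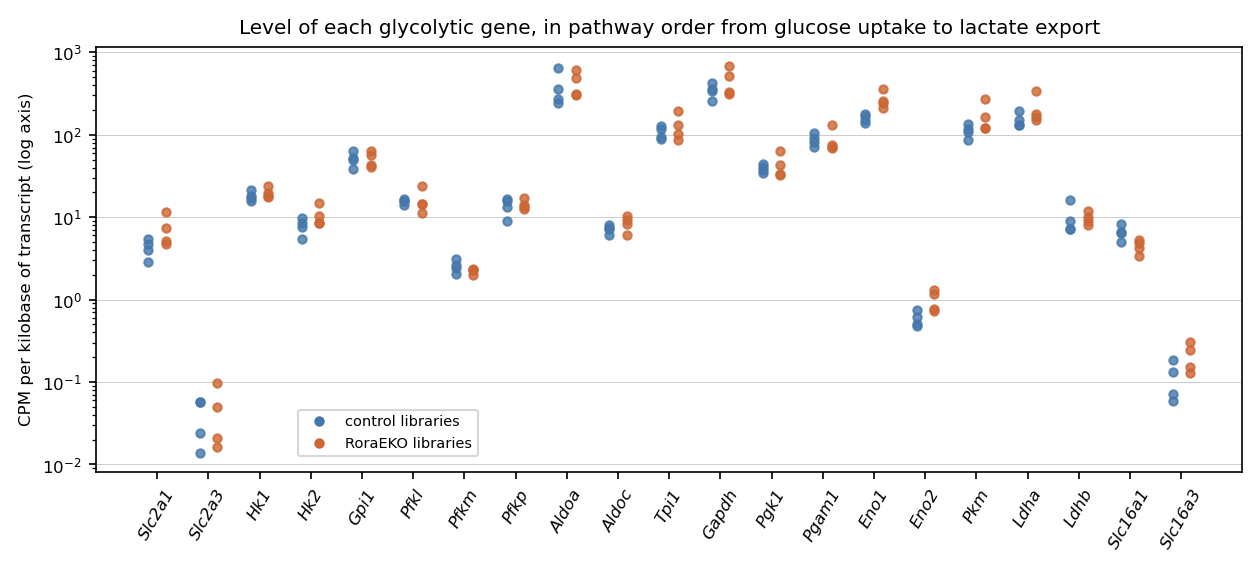
Level of 21 transport and glycolysis genes from glucose uptake to lactate export, in CPM per kilobase of the canonical transcript on a log axis; each point is a library, control to the left and RoraEKO to the right of each gene. *Aldoa* and *Gapdh* are the most abundant, at 379 and 344 CPM per kilobase on average in controls, the genotypes overlap in every gene but *Eno1*, and the topmost RoraEKO point of many genes is RoraEKO B4.

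Of the transporters, none of the 3 tested passed the edgeR test or DESeq2, and 2 had an unadjusted p under 0.05. *Slc16a1* encodes MCT1, which carries lactate and pyruvate across the membrane, and it was the most abundant of them per length in controls. It was at 22.7, 30.4, 29.9 and 38.1 CPM in controls and 19.5, 15.5, 24.6 and 22.5 CPM in RoraEKO. Control A1 lay within the RoraEKO range, and the other controls lay above it. The log2 fold change was -0.56 (SE 0.21, edgeR adjusted p = 0.136), and the gene was called lower once control A1 was left out, where it was at -0.68 on the log2 scale. With *Xist* as a covariate it was at -0.37 and in the libraries with *Xist* under 1 CPM at -0.32 (edgeR adjusted p = 0.4 and 0.479).

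*Slc2a1*, the basal glucose transporter GLUT1, was at 19.0 ± 5.0 CPM in controls and 32.3 ± 14.2 CPM in RoraEKO, with RoraEKO B4 at 52.0 CPM and a log2 fold change of 0.77 (0.44 without that library). *Slc16a3*, the HIF-induced lactate exporter MCT4, was at 0.525 ± 0.277 CPM in controls and 0.978 ± 0.389 CPM in RoraEKO. *Slc2a3*, the high-affinity transporter GLUT3, was listed at 0.151 ± 0.0894 and 0.183 ± 0.148 CPM, with at most 8 counts in a library, and did not pass the filter.

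Around the members, 131 further genes of the same pathways were examined in 9 lists, of which 111 were tested. Among them 2 were higher and 2 lower, and the median of their log2 fold changes was -0.02. The edgeR test made no call among the 13 other glycolytic genes tested (3 with an unadjusted p under 0.05), the 9 of gluconeogenesis and fructose use (0), the 8 of the pentose phosphate pathway (1), the 14 of glycogen (2) or the 11 regulators of HIF (0), and DESeq2 called 1 gene of these, the glycogen synthase *Gys1*, lower. DESeq2 also called *Pcx*, pyruvate carboxylase, higher among the genes of pyruvate oxidation and *Zfp395* lower among the further HIF targets. Of 11 genes of pyruvate oxidation, *Pdp1*, the phosphatase that undoes what the pyruvate dehydrogenase kinases do, rose from 1.36 ± 0.0518 to 2.68 ± 0.608 CPM (log2 fold change 0.98, edgeR adjusted p = 0.0472). Of 26 further HIF targets, *Car12*, a membrane carbonic anhydrase, rose from 16.8 ± 4.84 to 32.4 ± 6.12 CPM (log2 fold change 0.95, edgeR adjusted p = 0.0341). *Insig2*, which holds back sterol synthesis, and *Mxi1*, an antagonist of MYC, fell by 0.74 and 0.62 on the log2 scale (edgeR adjusted p = 0.0315 and 0.0343). The 26 include the targeted gene *Rora*, at -0.11, and their median was 0.09. The calls of *Pdp1*, *Car12*, *Insig2* and *Mxi1* held in 8, 13, 12 and 11 of the 19 alternative fits. Beside *Bnip3*, the edgeR test called none of 11 other mitophagy receptors and factors, of which 2 had an unadjusted p under 0.05 and *Pink1*, a kinase that marks damaged mitochondria, was called lower by DESeq2. Beside *Ddit4*, neither tool called any of 9 other brakes and partners of mTORC1, and 1 had an unadjusted p under 0.05.

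Cells other than keratinocytes were read from marker lists, as summed CPM. The 10 keratinocyte markers were present in every library and summed to between 48130 and 73984 CPM in controls and between 89068 and 111490 CPM in RoraEKO, without overlap and with 0 of 10 called by edgeR, 2 with an unadjusted p under 0.05, and *Krt1* and *Krt10* called higher by DESeq2. *Krt1* and *Krt10*, keratins of the suprabasal layers, made up most of the sum. The other 8 markers summed to between 10648 and 13235 CPM in controls and between 9093 and 12962 CPM in RoraEKO, with overlap. Of the basal keratins among them, *Krt15* had a log2 fold change of -0.57 without overlap (edgeR adjusted p = 0.0884). *Krt14* went the other way, at 1.12, and *Krt5* was at -0.22, both with overlap (edgeR adjusted p = 0.382 and 0.918). RoraEKO B4 stood apart in *Krt14* and *Krt5*, at 706 and 371 CPM. The other RoraEKO libraries were at 96.2 to 187 and 63.4 to 78.1 CPM. The 8 dermal fibroblast markers summed to between 23.1 and 35.4 CPM in controls and between 47.4 and 52.0 CPM in RoraEKO, again without overlap, and *Postn* was the 1 called of 5 tested. Without *Postn* the sums overlapped, at 11.2 to 18.3 CPM in controls and 10.8 to 26.6 CPM in RoraEKO. Endothelial markers summed to no more than 4.53 CPM and skeletal muscle markers to no more than 10.02 CPM, and both overlapped. The sums of erythroid, adipocyte, immune, melanocyte and sebocyte markers also overlapped. *Fabp4* made up most of the adipocyte sum (299 of 305 CPM in control A1). *Mitf*, with a log2 fold change of 0.10, made up much of the melanocyte sum (95.8 of 142 CPM in control A1). Of 6 erythroid markers tested, edgeR and DESeq2 called 0, and 4, the hemoglobin genes, had an unadjusted p under 0.05 with log2 fold changes of 1.77 to 1.98. Of 6 melanocyte markers, edgeR called 0 and 3 had an unadjusted p under 0.05, *Tyr* at -1.07, *Dct* at -0.95 and *Pmel* at -0.84, of which *Pmel* did not overlap and *Tyr* was called lower by DESeq2. Of 6 sebocyte markers, 1 had an unadjusted p under 0.05, *Scd3* at -1.92, and neither tool called any. No marker found in the table was at 0 in all libraries. What part the differences in *Krt1*, *Krt10*, *Postn* and these genes had in the values of the members was not tested.

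The sum of 9 hair follicle markers followed the title letter rather than genotype. *Krt71*, *Krt25* and *Krt27*, keratins of the inner root sheath, made up most of it, so the sum says little of matrix and shaft. The shaft keratins *Krt31* and *Krt85* did not fully follow the letter. They were higher in RoraEKO C3 (547 and 198 CPM) than in control B1 (445 and 164 CPM). The sum ran as follows. It was 33297 and 22243 CPM in control A1 and RoraEKO A3, 16077 and 19522 CPM in control B1 and RoraEKO B4, and between 4299 and 9238 CPM in the 4 libraries of letter C. *Aldoa* and *Ndrg1* were likewise higher in the A and B libraries of both genotypes than in the C libraries of both. *Pdk2* was at 12.8 CPM in control A1, 12.2 in RoraEKO A3 and 10.3 in control B1, against 2.10 to 6.46 CPM in the other 5. The part of hair in these 3 genes was not tested. *Bnip3* was lower in RoraEKO at each letter.

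**Figure D4:**
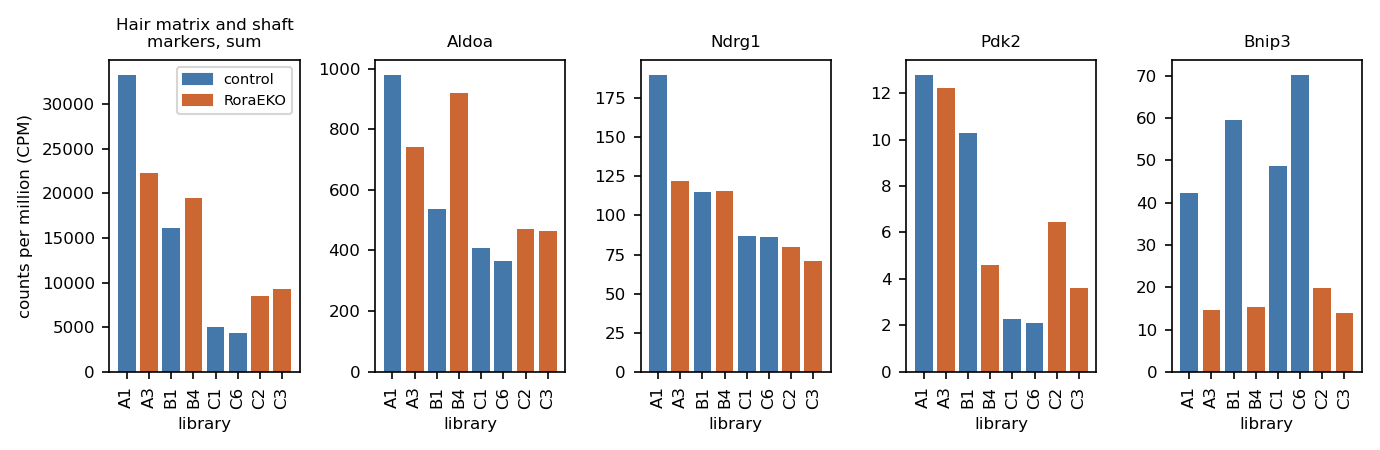
Summed CPM of 9 hair follicle markers (panel titled hair matrix and shaft), most of it from inner root sheath keratins, and CPM of *Aldoa*, *Ndrg1*, *Pdk2* and *Bnip3*. Each library is 1 bar from 0, with libraries ordered by title letter and coloured by genotype. The marker sum runs from 33297 CPM in control A1 to 4299 CPM in control C6, *Aldoa* and *Ndrg1* are higher in the A and B bars than in the C bars, and *Bnip3* separates by colour at every letter.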

How the data were processed

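The deposited data are RNA-seq of P4 dorsal epidermis from 4 control and 4 RoraEKO samples, in a table of 55416 genes. The authors made polyA-selected, stranded libraries, used Skewer for trimming and STAR 2.5.3a for mapping to GRCm39, and deposited RSEM expected counts, not scaled for depth or length. The annotation release and the strand setting are not given in the sources used here. The column heading names the sample titles, and group and replicate (A1, B1, C1, C6; A3, B4, C2, C3) came from the labels. That the samples are separate animals is not stated in the labels, while the paper gives mice with n = 4 per genotype for this RNA-seq. The p-values measure the spread between these samples.

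Expected counts were rounded to whole numbers, filtered with filterByExpr (13147 genes), scaled with TMM factors and tested by genotype alone over all genes with edgeR 4.0.16 (R 4.3.3, quasi-likelihood test). A call needed a fold change above 1.5 and a p below 0.05 after Benjamini-Hochberg adjustment. CPM use TMM-scaled library sizes. SE is the standard error of the genotype difference in log2 CPM (prior count 2). Levels per kilobase use the Ensembl canonical transcript of GENCODE release 39, where 54749 identifiers were found. The alternatives were 19 fits: RLE factors, library size alone, DESeq2 1.42.0, other edgeR tests, 2 other filters, a replicate block, *Xist* as a covariate and each library left out. 2 other cutoffs were also tried. Fits within libraries with *Xist* under 1 CPM and within title letters were added after seeing the data. Scripts were tested on simulated data. The members, pathway lists, marker lists and naming rule (full statistics for members called, with genotypes that did not overlap, or most abundant per length in their role) were chosen with earlier results of these data known. Plots were drawn with matplotlib 3.10.9.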

Additional observations from a re-analysis of the deposited data

Results flagged for a closer look

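In each member tested, the highest and the lowest of the 4 libraries of a genotype were set against the others by Dixon's test, in 72 groups of 4. It marked 5, and chance marks about 1 group in 20. RoraEKO B4 was the library in 3 of these. It held *Pgam1* at 234.4 CPM, where the other RoraEKO libraries were between 124 and 134.1 CPM. Its *Ldha* was at 534.3 CPM beside 239.1 to 286.1 CPM, and its *Pdk3* was at 13.93 CPM beside 9.348 to 9.527 CPM. *Pdk4*, which has at most 23 counts in a library, accounted for the others. It was at 1.202 CPM in control B1, where the other controls were between 0.8048 and 0.8633 CPM, and at 0.06525 CPM in RoraEKO A3, where the other RoraEKO libraries were between 0.5342 and 0.6264 CPM.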

How the results depend on the processing

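The number of members called lower stayed between 2 and 4 over all alternatives (3 as reported). The number called higher, 1 as reported, was 2 with RLE size factors, DESeq2, the likelihood ratio test, the exact test, the newer form of the quasi-likelihood test and all genes with at least 1 count, where *Eno1* joined *Pfkfb4*. It was 0 with library size alone, at least 10 counts in every library, *Xist* as a covariate, the libraries with *Xist* under 1 CPM and an adjusted p of 0.01, and between 0 and 1 with each library left out. With the title letter as a replicate block it was 3, with *Eno1* and *Pfkfb3*, and *Ankrd37* was added to those called lower. Deviations of same-letter libraries correlated at 0.0498 to 0.483 over 6 pairs, all positive and with 1 pair under 0.1. Those of different-letter libraries ran lower, from -0.517 to 0.282 over 10 pairs. The labels do not explain the letters, and the main test used genotype alone, so calls that differ under the block remain unsettled. *Aldoa* reversed to -0.23 with *Xist* as a covariate and to -0.16 in libraries with *Xist* under 1 CPM, and ran from -0.036 (without RoraEKO B4) to 0.57 with each library left out. *Ndrg1* ran from -0.42 to 0.017 (without control A1), and was at -0.66 with *Xist* as a covariate and -0.59 in libraries with *Xist* under 1 CPM. The causes were not tested. Of the 24 members given without a test, 12 changed sign in some fit, and each of these had a log2 fold change of at most 0.26 in size. Depth limits *Pdk4*, *Slc16a3*, *Eno2*, *Slc2a3* and *Car9*, which have at most 68 counts in a library.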

Other observations

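Taking the mean of each genotype out of the log2 CPM left the variation among libraries of one genotype. Over the 8 libraries and 13147 genes, the 5 genes whose remaining variation was most like that of *Bnip3* were *Pdcd7*, *Tm9sf1*, *Il6ra*, *Tbp* and *Ly6g6e* (Pearson's r of 0.992 for the first and 0.966 for the last). Those most like *Ddit4* were *Zc2hc1a*, *Wnk2*, *Mrpl42*, *Slf1* and *Wdr76* (r of 0.983 for the first and 0.936 for the last). Neither list held a member. These are the highest of many values over few libraries that share depth and scaling, given as a description.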
